A study of Mus musculus with 2 samples.

Results

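The synaptic vesicle and release genes are 38 genes whose products fill, dock, fuse and recycle the vesicles of the presynaptic terminal. They were picked by gene symbol from the 31053 genes of the count tables, with no measured value in the choice, and all 38 had at least 1 UMI in both libraries. UMIs are the unique molecular identifiers by which a 10x library counts captured RNA molecules, and each value below starts from a sum of UMIs. The nuclei came from the entorhinal cortex of male APP/PS1 mice, a line that carries mutant amyloid precursor protein and presenilin transgenes and deposits amyloid in the brain. One group had received OLE, the N-acyl amino acid C18:1-Leu, at 25 mg/kg/day and the other the DMSO vehicle. Both were dosed through alkaline drinking water from an age of 15 months and sampled at 18 months. Each group was 1 library made from the pooled tissue of 5 mice. Both libraries carry the APP/PS1 genotype and come from males, so neither a wild-type nor a female reference enters the comparison. With 1 library per condition no test between conditions was possible, nuclei were not treated as replicates, and no p-value was computed. Every interval given is an exact 95% interval that covers counting error alone.

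At a chemical synapse, transporters load neurotransmitter into vesicles, scaffold proteins of the active zone hold the vesicles at the release site, and SNARE proteins zip the vesicle and plasma membranes together when a synaptotagmin senses calcium. The membrane is then retrieved by the endocytic machinery. Many of these proteins come in families of close relatives that different neurons use in different mixtures. Snap25, Syt1 and the synapsins are in common use as markers of neurons as a whole.

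The vehicle library held 6745 barcodes and 70845739 UMIs and the OLE library 6173 barcodes and 69485537 UMIs, with medians of 3989 and 6392 UMIs per barcode, and 14 barcode sequences occurred in both. Clusters were built with the 38 genes left out of the variable genes, so their levels did not define a cluster. Glutamatergic-like nuclei numbered 1920 in the vehicle and 1851 in the OLE library, and GABAergic-like nuclei 324 and 351. A further 2480 and 2037 barcodes, named low-UMI barcodes here, had raised markers of several classes, at medians of 2363 and 4734 UMIs, and were left unnamed. They fell into a pair of clusters that divided by library, with 2246 vehicle and 323 OLE barcodes in cluster 0 and 234 vehicle and 1714 OLE barcodes in cluster 1. Hemoglobin RNA in them was 417 UMIs per 1000000 in the vehicle and 75.0 in the OLE library. Levels below are UMIs of a gene per 1000000 UMIs of the same class and library, called scaled UMIs. Because the reference counted unspliced RNA, a long gene collects more UMIs than a short one, so levels of different genes are compared only per kilobase (kb) of gene span.

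A promoter here is the 300 bases from 250 before to 50 after an annotated transcription start, taken from RefSeq on GRCm38.p6, the build of the count tables. An entry was found for 31 of the 38 genes, and Snap25, Vamp2, Syt4, Syt5, Syt7, Syn3 and Rims2 were without one. The promoters of 4 short genes with large differences between the libraries are shown, so that the genes on which the comparison turns can be seen beside their values. Capitals mark each match to GGGCGG on either strand, written CCGCCC where it lies on the minus strand. The motif TGACGTCA was searched as well and has no match in these 4. For Rab3a the table holds 2 sequences and the first is shown.
Rab3a, chr8:70754453-70754752, plus strand: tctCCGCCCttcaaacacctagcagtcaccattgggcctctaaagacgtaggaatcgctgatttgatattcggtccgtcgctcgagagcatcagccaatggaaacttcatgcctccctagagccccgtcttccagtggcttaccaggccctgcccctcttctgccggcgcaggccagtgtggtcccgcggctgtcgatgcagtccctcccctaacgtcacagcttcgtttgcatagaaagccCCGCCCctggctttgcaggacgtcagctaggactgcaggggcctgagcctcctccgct
Syp, chrX:7638330-7638629, plus strand: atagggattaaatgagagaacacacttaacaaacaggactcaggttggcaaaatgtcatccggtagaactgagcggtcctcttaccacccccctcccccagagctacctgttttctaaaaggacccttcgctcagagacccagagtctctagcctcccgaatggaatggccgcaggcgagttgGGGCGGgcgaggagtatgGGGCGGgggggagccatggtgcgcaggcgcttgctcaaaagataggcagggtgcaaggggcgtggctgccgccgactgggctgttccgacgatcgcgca
Slc17a7, chr7:45163671-45163970, plus strand: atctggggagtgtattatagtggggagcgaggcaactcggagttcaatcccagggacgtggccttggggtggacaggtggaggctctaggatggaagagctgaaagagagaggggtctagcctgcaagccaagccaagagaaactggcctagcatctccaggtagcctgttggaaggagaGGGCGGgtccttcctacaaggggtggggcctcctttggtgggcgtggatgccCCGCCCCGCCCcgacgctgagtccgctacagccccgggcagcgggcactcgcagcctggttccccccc
Slc32a1, chr2:158610508-158610807, plus strand: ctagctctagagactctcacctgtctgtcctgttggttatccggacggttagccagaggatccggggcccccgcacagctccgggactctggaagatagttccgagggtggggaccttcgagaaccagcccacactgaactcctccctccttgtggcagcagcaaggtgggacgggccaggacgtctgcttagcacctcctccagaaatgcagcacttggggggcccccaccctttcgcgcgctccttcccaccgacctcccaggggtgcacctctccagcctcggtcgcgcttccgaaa

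The Rab3a promoter holds 2 matches to GGGCGG, that of Syp 2, that of Slc17a7 3, of which a pair overlap, and that of Slc32a1 0. A share of 35.7% of all 32851 promoter sequences held GGGCGG and 1.79% TGACGTCA. Of the 42 sequences that belong to the 38 genes, 61.9% held GGGCGG, and Napa, Syn1 and Sh3gl2 were the 3 genes with TGACGTCA. The median GC content was 62.2% over the sequences of these genes and 52.7% over all sequences of the table. A match states that these letters stand in this window and nothing about a bound factor.

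Taken as one sum, the 38 genes held almost the same share of neuronal RNA in both libraries. In glutamatergic-like nuclei they made up 1.59% of UMIs in the vehicle and 1.57% in the OLE library, and in GABAergic-like nuclei 1.36% and 1.33%. The low-UMI barcodes lay close to the neurons, at 1.44% and 1.42%. Oligodendrocyte-like nuclei had 0.479% and 0.468%, astrocyte-like nuclei 0.363% and 0.326%, and microglia-like nuclei 0.583% and 0.553%. Among the 4 named kinds of GABAergic-like nuclei the sum was largest in the Lamp5 kind, at 1.65% and 1.57%, and smallest in the Vip kind, at 1.15% and 1.10%. The order of these 4 kinds was the same in both libraries. The unnamed sub-cluster of the class, with 21 and 16 nuclei, stood near the Vip kind at 1.13% and 1.10%.

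The question put to the libraries was how the release machinery of the main neuron classes differed between the OLE and the vehicle library. A gene was counted as higher or lower where its log2 ratio of OLE to vehicle was at least 0.25 in size, among genes for which the 2 libraries together held 100 UMIs or more. The study's methods give the same number for a log fold change with no base stated, and pair it with an adjusted p-value, which was not available with 1 library per condition. In glutamatergic-like nuclei all 38 genes passed this minimum. Of them 9, or 23.7%, were higher in the OLE library and 0 lower, where 20.7% of all 14176 genes were higher and 3.17% lower. The 9 include Slc32a1, the GABA transporter, on 199 UMIs, and without it 8 of 37, or 21.6%, were higher. The median log2 ratio was 0.07 over the 38 genes and 0.07 over all genes. In GABAergic-like nuclei 37 genes passed, of which 11, or 29.7%, were higher and 1 lower, against 25.1% and 4.3% of 9634 genes, with medians of 0.10 and 0.08. The gene that did not pass was Slc17a6, with 37 UMIs in all. As a group the 38 genes thus stood near the background in both classes, and the differences lay between the genes of the group. Scaling by the median ratio over genes in place of total UMIs gave 7 higher and 0 lower in glutamatergic-like nuclei, and 10 higher and 5 lower in GABAergic-like nuclei. Shares over all genes were not counted under that scaling, so these counts have no background beside them.

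**Figure D1:**
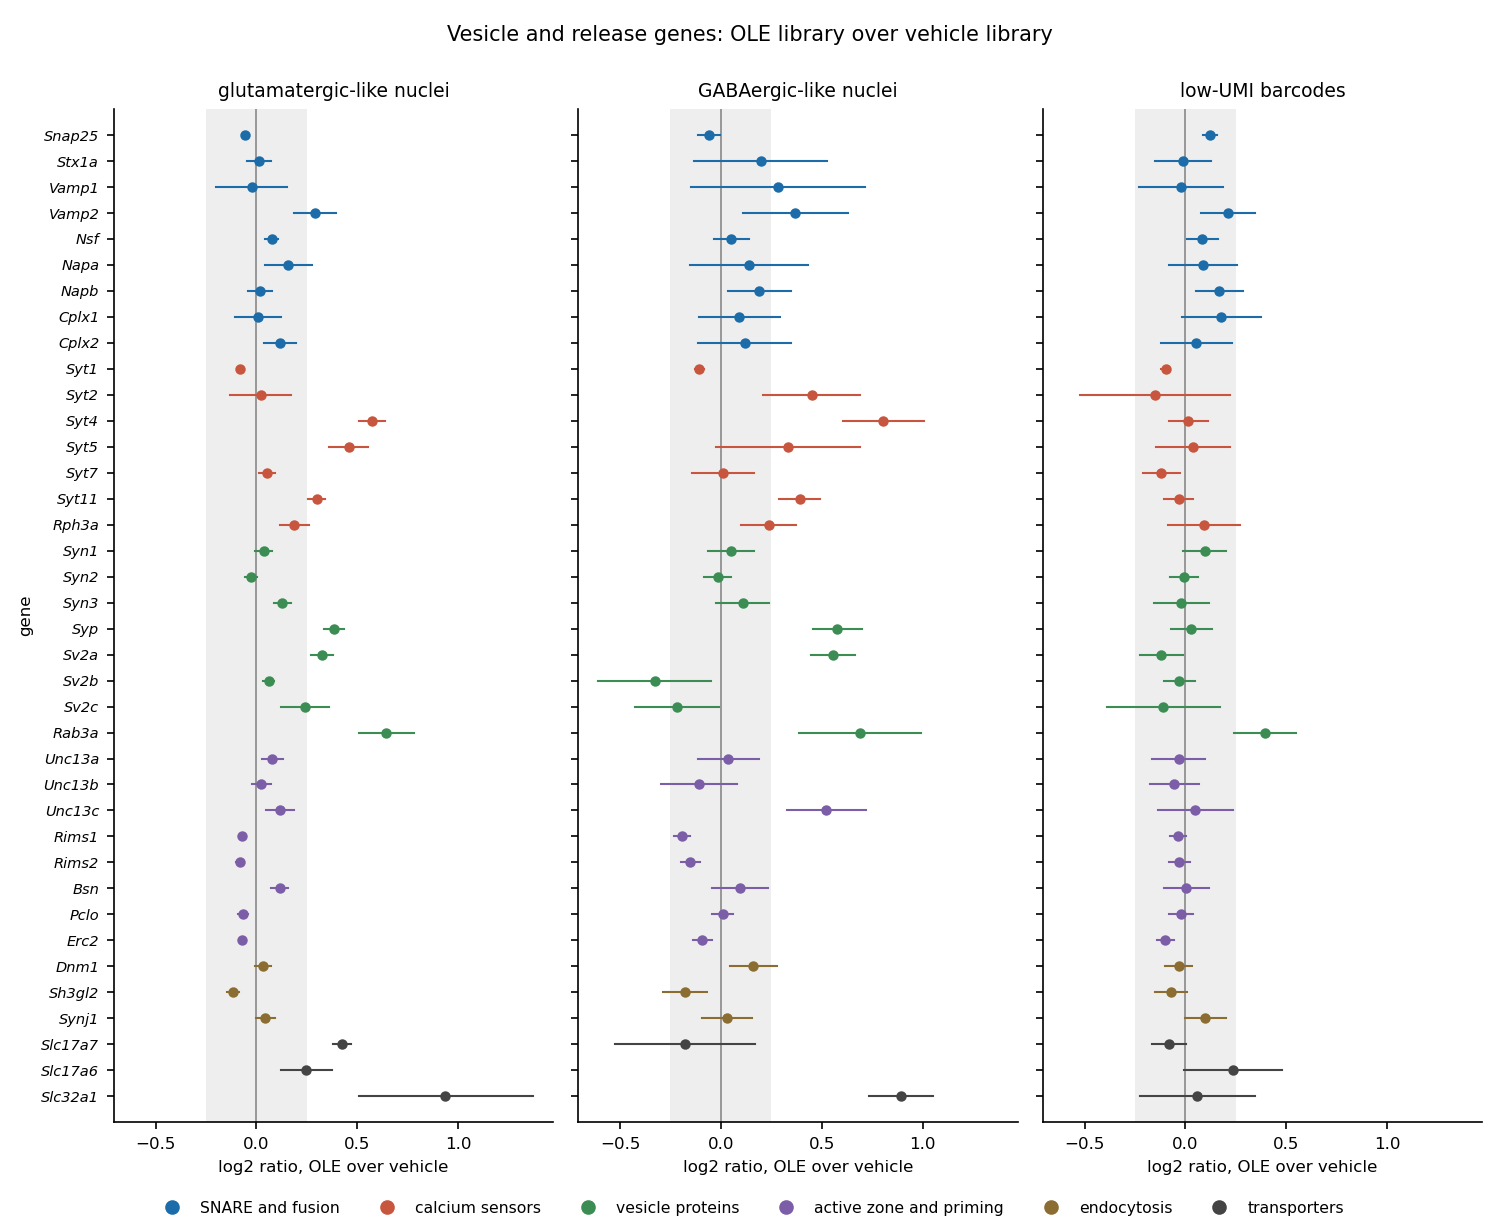
Log2 ratio of the OLE to the vehicle library (horizontal axis, no unit) for each of the 38 genes (vertical axis, ordered by role), in glutamatergic-like nuclei, GABAergic-like nuclei and low-UMI barcodes. Points are ratios of scaled UMIs, bars exact 95% intervals for counting error, and the grey band marks ratios under 0.25 in size. Rab3a lies to the right of the band in all 3 panels, while Slc32a1 and Syt4 do so in the first 2 panels and not in the third.

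The SNARE proteins and their partners are the fusion engine itself, and 1 of the 9 was higher in glutamatergic-like nuclei. Vamp2, the main vesicle SNARE of the forebrain, was 31.4 scaled UMIs in the vehicle and 38.4 in the OLE library, a log2 ratio of 0.29 (0.19 to 0.39). In GABAergic-like nuclei Vamp2 was 32.8 and 42.3, a log2 ratio of 0.37 (0.11 to 0.63), so this gene was higher in both neuron classes. Its relative Vamp1, the vesicle SNARE better known from brainstem and spinal cord, was 12.4 and 12.2 in glutamatergic-like nuclei. In GABAergic-like nuclei Vamp1 was 12.6 and 15.3, past the fold limit at 0.28 but with an interval of -0.15 to 0.71 that spans 0. Snap25, the plasma membrane SNARE, was 1271 and 1223 in glutamatergic-like nuclei and 862 and 827 in the GABAergic-like class, log2 ratios of -0.06 and -0.06. Stx1a, the syntaxin of the plasma membrane, Nsf, the ATPase that pulls spent SNARE complexes apart, its adaptors Napa and Napb, and the complexins Cplx1 and Cplx2, which clamp the partly zipped complex until calcium arrives, lay between 0.01 and 0.16 in glutamatergic-like and between 0.05 and 0.20 in GABAergic-like nuclei. None of these 6 reached the limit in either class.

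Among the 7 calcium sensors the differences were uneven. Syt4, a synaptotagmin that does not bind calcium in the usual way and sits on trafficking and dense-core vesicles, was 75.9 scaled UMIs in the vehicle and 113 in the OLE library of glutamatergic-like nuclei, at a log2 ratio of 0.57 (0.51 to 0.64). In GABAergic-like nuclei it was 48.3 and 84.5, a ratio of 0.81 (0.61 to 1.01), and it was higher in the OLE library in the Pvalb, Sst and Lamp5 kinds, at log2 ratios between 0.70 and 0.91. The Vip kind held 33 and 64 Syt4 UMIs, under the minimum, at 0.78 (0.15 to 1.43). Its closest relative Syt11, which also lacks calcium binding, was 187 and 231 in glutamatergic-like nuclei, at 0.30 (0.26 to 0.34). In GABAergic-like nuclei Syt11 was 209.8 and 275, at 0.39 (0.29 to 0.49). With each nucleus thinned at random to 1000 UMIs, Syt11 stood at 0.15 (-0.05 to 0.35) in glutamatergic-like nuclei, on 395 and 423 UMIs. In GABAergic-like nuclei it stood at 0.16 (-0.28 to 0.61), on 80 and 97 UMIs. Both are under the limit, with intervals that include no difference. The mean over nuclei, which keeps all UMIs, gave 0.26 and 0.29 for Syt11. Thinned Syt4 stayed past the limit in glutamatergic-like nuclei, at 0.49 (0.19 to 0.80). Syt5, another vesicle synaptotagmin, was 35.2 and 48.4 in glutamatergic-like nuclei, at 0.46 (0.36 to 0.55). In GABAergic-like nuclei Syt5 was 17.8 and 22.5, at 0.33 with an interval of -0.02 to 0.69.

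The sensors that trigger release did not share this pattern in glutamatergic-like nuclei. Syt1, the fast calcium sensor of most forebrain synapses, was 5095 and 4808 scaled UMIs there, at -0.08 (-0.09 to -0.07), and 4227 and 3926 in GABAergic-like nuclei, at -0.11 (-0.13 to -0.08). Syt7, the slow sensor of asynchronous release and facilitation, stood at 0.05 and 0.01. Rph3a, rabphilin, an effector of Rab3 with calcium-binding domains, stood at 0.19 and 0.24, under the limit in both classes. Syt2, the fast sensor of fast-spiking interneurons and of the brainstem, was 16.5 and 16.7 in glutamatergic-like nuclei, at 0.02, and 37.0 and 50.5 in GABAergic-like nuclei, at 0.45 (0.21 to 0.69). Of the 7 calcium sensors, 3 were thus higher in glutamatergic-like nuclei and 4 in GABAergic-like nuclei.

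Of the 8 vesicle proteins, Rab3a, the small GTPase that brings vesicles to the active zone, had the largest ratio among members with 200 UMIs or more in glutamatergic-like nuclei. It was 17.0 scaled UMIs in the vehicle and 26.5 in the OLE library (770 and 1086 UMIs), at 0.64 (0.51 to 0.78), and 22.2 and 35.8 in GABAergic-like nuclei, at 0.69 (0.39 to 0.99). In oligodendrocyte-like nuclei Rab3a passed the limit as well, and was 31.3 and 51.3 on 68 and 91 UMIs, at 0.71 (0.24 to 1.19). Under the minimum of UMIs, Rab3a stood at 0.83 (-0.14 to 1.87) in astrocyte-like and 0.41 (-0.28 to 1.09) in microglia-like nuclei. Syp, synaptophysin, one of the most abundant proteins of the vesicle membrane, was 134 and 175 in glutamatergic-like nuclei, at 0.39 (0.34 to 0.44), and 142 and 212 in GABAergic-like nuclei, at 0.58 (0.46 to 0.70). Sv2a, the widely expressed member of the SV2 glycoproteins and the binding site of levetiracetam, was 106 and 133, at 0.33 (0.27 to 0.38), and in GABAergic-like nuclei 171 and 251, at 0.56 (0.45 to 0.66). These 3 genes were higher in both neuron classes at full depth. With each nucleus thinned to 1000 UMIs in 1 random draw, Syp stood at 0.24 (-0.28 to 0.76) and Sv2a at 0.24 (-0.25 to 0.74) in GABAergic-like nuclei, both under the limit. These rest on 58 and 74 UMIs for Syp and 64 and 82 for Sv2a. In glutamatergic-like nuclei the draw gave 0.28 for Syp, 0.23 for Sv2a and 0.24 (-0.38 to 0.87) for Rab3a, the last on 43 and 49 UMIs. The mean over nuclei, which also weights nuclei equally but keeps all UMIs, gave 0.53 for Rab3a, 0.53 for Syp and 0.41 for Sv2a in GABAergic-like nuclei and 0.65, 0.36 and 0.30 in glutamatergic-like nuclei.

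The other SV2 genes went another way in GABAergic-like nuclei. Sv2b was 422 and 439.8 in glutamatergic-like nuclei, at 0.06, and 36.6 and 29.1 in GABAergic-like nuclei, at -0.33 (-0.61 to -0.05), the 1 gene of the 38 that was counted as lower in a neuron class. Most of that difference lay in the Sst kind, where it was 46.8 and 21.8 (80 and 36 UMIs), while the Pvalb kind had 25.1 and 25.3. Sv2c was 24.5 and 29.0 in glutamatergic-like nuclei, at 0.24 (0.12 to 0.36), and 61.2 and 52.7 in GABAergic-like nuclei, at -0.22 (-0.43 to -0.01). The synapsins Syn1, Syn2 and Syn3, which tether vesicles to one another and to actin, stayed between -0.03 and 0.13 in glutamatergic-like and between -0.02 and 0.11 in GABAergic-like nuclei. The ratio of Sv2b in GABAergic-like nuclei was -0.08 without removal of doublets and -0.19 as a mean over nuclei, both under the limit. In the thinned draw it had the other sign, at 1.08 (-0.28 to 2.60) on 7 and 16 UMIs. Sv2c also turned there, to 0.58 (-0.37 to 1.58) on 16 and 26 UMIs. Both thinned values rest on fewer UMIs than the minimum.

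The active zone scaffolds and priming factors lay near 0. In glutamatergic-like nuclei 0 of 8 passed the limit and their median was -0.02. Rims1, the scaffold that links Rab3 on the vesicle to calcium channels, was 1684 and 1602 scaled UMIs there, at -0.07 (-0.09 to -0.06), and 1848 and 1617 in GABAergic-like nuclei, at -0.19 (-0.23 to -0.16). Its relative Rims2 was 913 and 864, at -0.08 (-0.10 to -0.06), and in GABAergic-like nuclei 1191 and 1072, at -0.15 (-0.20 to -0.11). Both RIM genes were below 0 in both classes, with intervals that exclude 0 and sizes under the limit. Erc2, an ELKS scaffold, stood at -0.07 and -0.09, and the giant scaffolds Bsn, bassoon, and Pclo, piccolo, at 0.11 and -0.07 in glutamatergic-like nuclei and at 0.10 and 0.01 in the GABAergic-like class.

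Munc13 proteins open syntaxin so that SNARE complexes can form. Unc13a, the main form at forebrain glutamate synapses, and Unc13b stood at 0.08 and 0.02 in glutamatergic-like and at 0.04 and -0.11 in GABAergic-like nuclei. Unc13c, best known from the cerebellum, was 74.4 and 80.8 in glutamatergic-like nuclei, at 0.12. In GABAergic-like nuclei it was 53.8 and 77.3, at 0.52 (0.33 to 0.72), and was the 1 active zone gene past the limit. Nearly all of its UMIs there came from the Sst kind, where it was 207 and 280.1, at 0.44 (0.23 to 0.64).

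The 3 endocytic genes showed no difference past the limit. Dnm1, the dynamin that pinches vesicles off the membrane, was 248 and 254 scaled UMIs in glutamatergic-like nuclei, at 0.03, and stood at 0.16 in GABAergic-like nuclei. Synj1, synaptojanin, the lipid phosphatase that lets clathrin coats fall away, stood at 0.04 and 0.03. Sh3gl2, an endophilin that bends the membrane, was 425 and 392, the lowest ratio of the 38 in glutamatergic-like nuclei at -0.12 (-0.15 to -0.09), and it stood at -0.18 (-0.29 to -0.07) in GABAergic-like nuclei.

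The main vesicular transporter of each class was higher in the OLE library in that class. Slc17a7, the vesicular glutamate transporter of most cortical neurons, was 162 scaled UMIs in the vehicle and 217 in the OLE library of glutamatergic-like nuclei, at 0.42 (0.38 to 0.47). The thinned draw gave 0.06 (-0.14 to 0.27) for it and the mean over nuclei 0.38. In GABAergic-like nuclei it was 22.6 and 20.0, at -0.18 (-0.53 to 0.17), and below the 79.3 and 73.8 of oligodendrocyte-like nuclei. Slc17a6, the glutamate transporter common in thalamus and other subcortical regions, was 22.1 and 26.2 in glutamatergic-like nuclei, at 0.25 after rounding (0.12 to 0.37) and just under the limit before it. Slc32a1, the vesicular GABA transporter, was 74.6 and 138 in GABAergic-like nuclei (514 and 893 UMIs), at 0.89 (0.73 to 1.05), the largest ratio of the 38 there.

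The Slc32a1 difference appeared in every kind of GABAergic-like nuclei. It was 75.4 and 173 in the Sst kind, a log2 ratio of 1.20 (0.90 to 1.51), and 74.4 and 135 in the Pvalb kind, at 0.86 (0.60 to 1.12). The Vip kind had 70.9 and 129, at 0.86 (0.37 to 1.37), and the Lamp5 kind 74.6 and 107, at 0.52 (0.15 to 0.90). In the vehicle library the 4 kinds thus had nearly one level, and in the OLE library Sst was highest and Lamp5 lowest. With each nucleus thinned to 1000 UMIs, 7.72% (5.06 to 11.2) of GABAergic-like nuclei in the vehicle and 12.8% (9.51 to 16.8) in the OLE library held an Slc32a1 UMI, and these intervals overlap. Unthinned shares were 72.8% and 84.0% at median depths of 18694 and 16661 UMIs. Oligodendrocyte-like nuclei, which should lack the gene, had thinned shares of 0.514% and 1.14%, and unthinned 1.37% and 2.46% at medians of 3484 and 3084.

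In glutamatergic-like nuclei Slc32a1 also passed the limit, at 0.94 (0.51 to 1.37), but on 73 and 126 UMIs and levels of 1.61 and 3.08. These levels are below the 3.69 and 7.33 of oligodendrocyte-like nuclei, which should lack the gene, so no expression in glutamatergic neurons is read from them. In all, 6 genes were below oligodendrocyte-like nuclei in both libraries in the glutamatergic-like class, Vamp2, Napa, Syt11, Sv2a, Rab3a and Slc32a1, and 7 in the GABAergic-like class, Vamp2, Napa, Syt11, Sv2b, Rab3a, Slc17a7 and Slc17a6. For Rab3a, for instance, the 17.0 and 26.5 of glutamatergic-like nuclei stand against 31.3 and 51.3, and for Vamp2 31.4 and 38.4 against 51.6 and 56.4. How much of these levels, in any class, is RNA from other nuclei was not tested. The share of all genes below oligodendrocyte-like nuclei was not counted.

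The ratios followed gene span. Gene span is the distance from the first to the last base of the gene in GENCODE vM21. The 10 genes under 20 kb were Vamp2 (3.90 kb), Rab3a (4.00 kb), Slc32a1 (4.98 kb), Syt5, Syt4, Slc17a7, Cplx2, Sv2a, Syp and Napa (19.5 kb). Their median log2 ratio in glutamatergic-like nuclei was 0.41, with values from 0.12 to 0.94, where the 5515 genes of that span had a median of 0.15. Without Slc32a1 the median of the other 9 was 0.39, with a highest value of 0.64. The 9 genes over 200 kb, Syt1, Syn3, Unc13b, Unc13c, Rims1, Rims2, Pclo, Erc2 and Sh3gl2, had a median of -0.07, and all genes of that span one of -0.02. In GABAergic-like nuclei the medians were 0.46 for the genes under 20 kb and -0.11 for those over 200 kb, against 0.23 and -0.04 for all genes of those spans. Spearman's correlation of ratio with span was -0.69 across the 38 genes and -0.34 across 14166 genes in glutamatergic-like nuclei, and -0.65 across 37 and -0.40 across 9631 in GABAergic-like nuclei. The points of each correlation share the same 2 libraries. All 10 short genes lay above 0 in glutamatergic-like nuclei, and Slc17a7 was the exception in GABAergic-like nuclei.

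**Figure D2:**
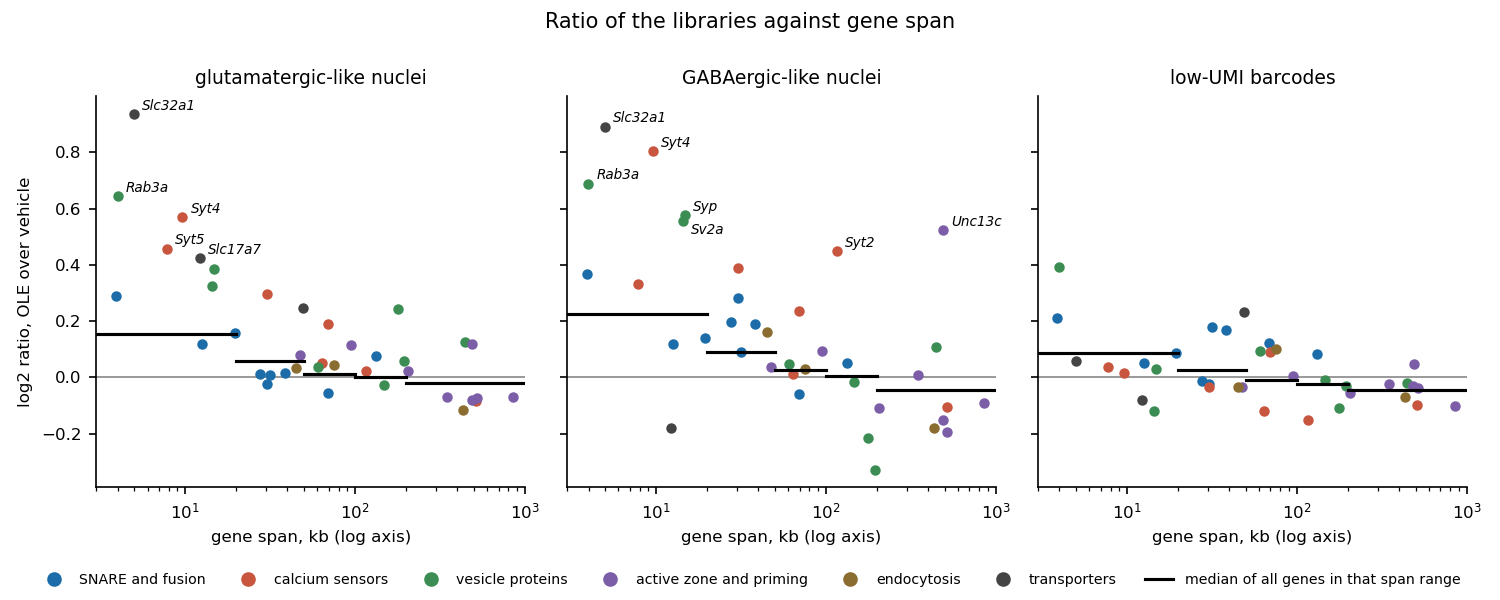
Log2 ratio of the OLE to the vehicle library (vertical axis) against gene span in kb (horizontal axis, log scale) for the 38 genes in 3 classes, coloured by role. Black bars are the medians of all genes in that range of spans. Most genes under 20 kb lie above the black bars in the neuron classes, where the medians of the 10 genes under 20 kb are 0.41 and 0.46 against 0.15 and 0.23 for all genes, and in low-UMI barcodes the medians are 0.04 and 0.09.

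Other measures moved with these ratios and their part in the result was not tested. The median depth of glutamatergic-like nuclei was 21117 UMIs in the vehicle and 19496 in the OLE library. RNA of cytosolic ribosomal proteins was 0.0747% of UMIs in the vehicle and 0.106% in the OLE library of glutamatergic-like nuclei, and 0.0849% and 0.119% in GABAergic-like nuclei. The listed nuclear RNAs, such as Malat1 and Meg3, were 3.89% and 4.30%, and 4.11% and 4.42%. Mitochondrial RNA was 0.335% and 0.309% in glutamatergic-like nuclei and 0.486% and 0.461% in the GABAergic-like class, lower in the OLE library in both.

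The direction of the leading differences was shared by the clusters. Glutamatergic-like nuclei fell into 13 clusters, and 37 of the 38 genes had over 3 UMIs in each cluster and library. Syt4, Syt5, Syt11, Syp, Sv2a, Rab3a and Slc17a7, which makes 7 genes, were higher in the OLE library in all 13, as were 406 of 10172 genes, or 3.99%. Over the 13 clusters the log2 ratio ran from 0.21 to 0.76 for Syt4, from 0.29 to 0.71 for Slc17a7 and from 0.22 to 1.28 for Rab3a. Vamp2 was higher in 12 of the 13. No member was lower in all 13, where 0.197% of genes were. The clusters are parts of the same 2 libraries, so they do not stand for independent samples.

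Over all low-UMI barcodes the ratios lay closer to 0. All 38 genes passed the minimum, 1, or 2.63%, was higher and 0 lower, against 13.6% higher and 6.68% lower among 11511 genes, and the medians were -0.01 over the 38 genes and 0.02 over all genes. Because vehicle barcodes were mostly of cluster 0 and OLE barcodes mostly of cluster 1, each cluster was also taken alone. Within cluster 0, 6 genes were higher and 4 lower, against 22.4% and 17.9% of 8493 genes, and within cluster 1, 4 were higher and 1 lower, against 20.7% and 12.5% of 10356. Rab3a was the 1 gene higher in both. With both clusters together Rab3a was also the gene past the limit, at 78.9 scaled UMIs in the vehicle and 104 in the OLE library, a log2 ratio of 0.39 (0.24 to 0.55). Its ratio was 0.40 within cluster 0 and 0.72 within cluster 1, on 73 UMIs in the smaller library of each. Syt4 was 211 and 213, at 0.02 (-0.08 to 0.11), and Slc17a7 286 and 270.5, at -0.08 (-0.17 to 0.00). Syp stood at 0.03 and Slc32a1 at 0.06, both with intervals that span 0, although Syp was 0.27 within cluster 0 and Slc32a1 0.38 within cluster 1. Vamp2 was 111 and 128, at 0.21 (0.08 to 0.34). Whether the ratios differ between neurons and low-UMI barcodes was not tested.

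The low-UMI barcodes also held a different mixture of these RNAs from neurons of their own library. Short genes tended to stand above and long genes below. Rab3a was 78.9 scaled UMIs in low-UMI barcodes and 17.0 in glutamatergic-like nuclei of the vehicle library, a log2 ratio of 2.22 (2.05 to 2.38), and in the OLE library the ratio was 1.97 (1.84 to 2.09). Vamp1 stood at 1.95 and 1.95, Vamp2 at 1.82 and 1.74, Napa at 1.48 and 1.41, and Syt4 at 1.47 and 0.92. At the other end Syn3 stood at -0.81 and -0.95, Erc2 at -0.64 and -0.67, Rims1 at -0.47 and -0.44, and Syt1 at -0.45 and -0.46. Snap25, a SNARE of the plasma membrane with a span of 69.0 kb, was 1658 in low-UMI barcodes and 1271 in glutamatergic-like nuclei of the vehicle library, and 1805 and 1223 in the OLE library.

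Genes at large were higher in low-UMI barcodes too, and the 38 are read against that shift. The median log2 ratio of low-UMI barcodes to glutamatergic-like nuclei over 11339 genes was 0.38 in the vehicle and 0.34 in the OLE library. Over the 38 genes the medians were 0.12 and 0.00, with 21 and 19 above 0, where 70.8% and 69.7% of all genes were above 0. Above the median of all genes were 16 and 14 of the 38. The 5 genes between 0 and that median, whose direction turns if the median is taken as the reference, were Stx1a, Cplx2, Syt7, Sv2c and Synj1 in the vehicle and Stx1a, Cplx2, Syp, Sv2a and Slc17a7 in the OLE library. Spearman's correlation with span was -0.87 in the vehicle and -0.84 in the OLE library over the 38 genes, and -0.59 in each library over 11335 genes, with the same barcodes behind all points.

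**Figure D3:**
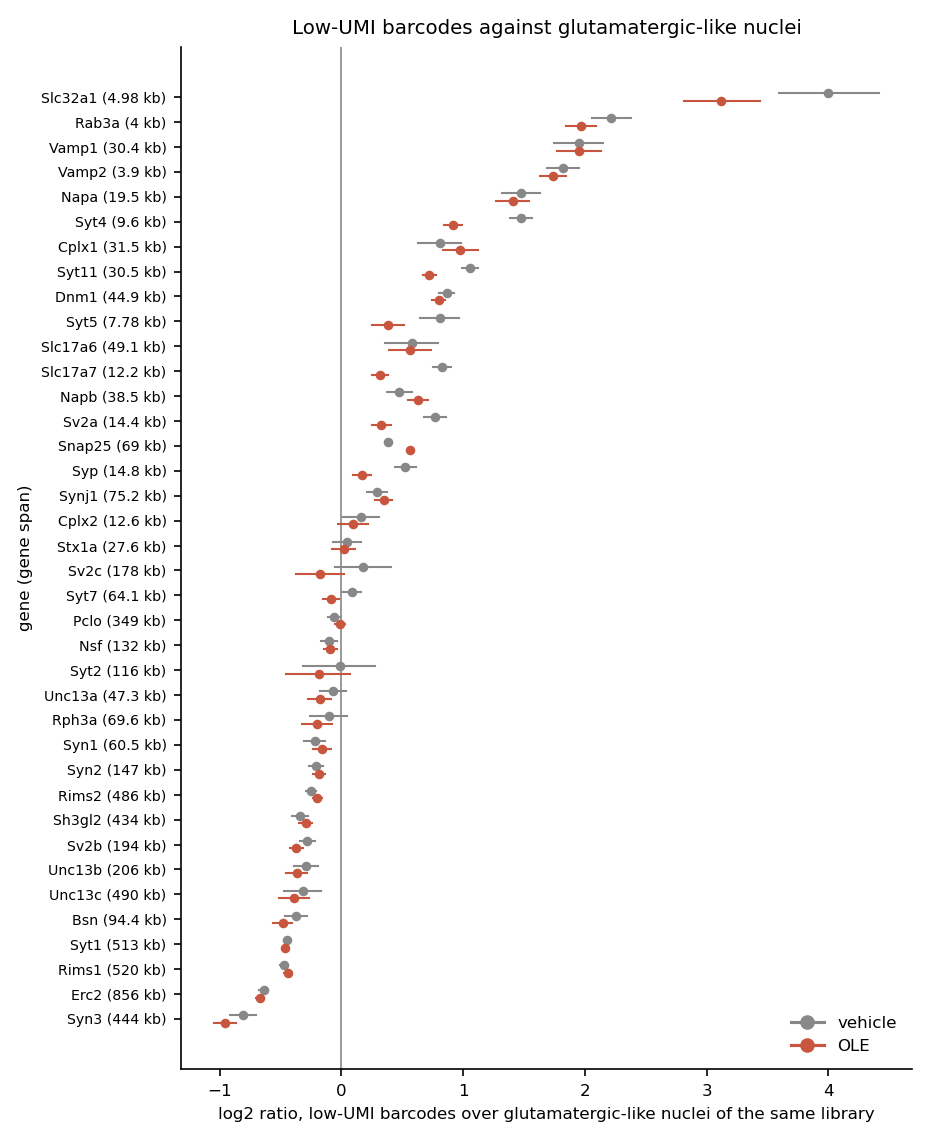
Log2 ratio of low-UMI barcodes to glutamatergic-like nuclei of the same library (horizontal axis) for each of the 38 genes with its span in kb (vertical axis, ordered by the ratio), in grey for the vehicle and red for the OLE library, with exact 95% intervals for counting error. Slc32a1, Rab3a, Vamp1 and Vamp2 stand farthest to the right, from 1.74 to 4.00, and Syn3 and Erc2 farthest to the left, from -0.95 to -0.64.

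The low-UMI barcodes did not lie between the neuron classes for every gene. Of the 37 genes with 100 UMIs or more in all 3 classes, 17 in the vehicle and 14 in the OLE library were above both glutamatergic-like and GABAergic-like nuclei, where 53.3% and 50.8% of 9407 genes were. Another 9 and 11 were below both, where 22.3% and 23.9% of genes were. In both libraries 14 genes were above, among them Snap25, Vamp1, Vamp2, Syt4, Syt11, Rab3a and Dnm1, and 8 below, among them Syt1, Syn3, Rims1, Rims2 and Pclo. RNA of the transporters for GABA and for glutamate was found in the sums over these barcodes, and single barcodes with both were not counted. Slc32a1 was 25.7 and 26.8 scaled UMIs, between the 1.61 and 3.08 of glutamatergic-like and the 74.6 and 138 of GABAergic-like nuclei, and Slc17a7 at 286 and 270.5 was above both classes.

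Glutamatergic-like and GABAergic-like nuclei differed in which family members they held, and 37 of the 38 ratios of the classes had the same sign in both libraries. The exception was Napb, at -0.17 and 0.00. For 8 genes, Syt2, Syp, Sv2a, Sv2c, Unc13c, Rims1, Rims2 and Slc17a7, the intervals of the 2 libraries did not overlap, so the size differed by more than counting error. Neither count was made over all genes, so neither is read as a trait of the 38. The marker lists that named the classes hold no vesicular transporter for glutamate or GABA, so the transporters are a check of the names. Slc32a1 was higher in GABAergic-like nuclei by a log2 ratio of 5.54 (5.18 to 5.91) in the vehicle and 5.49 (5.22 to 5.77) in the OLE library. Slc17a7 was lower there, at -2.84 (-3.07 to -2.61) and -3.44 (-3.70 to -3.19), and Slc17a6 at -2.86 and -3.40. Among the SV2 genes only Sv2b was higher in glutamatergic-like nuclei, 422 scaled UMIs against 36.6 in GABAergic-like nuclei of the vehicle library. Its log2 ratio was -3.53 (-3.71 to -3.35) in the vehicle and -3.92 (-4.13 to -3.71) in the OLE library. Per kb of span and over both libraries, Sv2a stood above Sv2b in glutamatergic-like nuclei, at 8.26 scaled UMIs against 2.21. Sv2a was higher in GABAergic-like nuclei, at 0.69 and 0.92, as was Sv2c, at 1.32 (1.15 to 1.48) and 0.86 (0.68 to 1.04). Unc13c was lower in GABAergic-like nuclei of the vehicle library, at -0.47 (-0.63 to -0.31), and stood at -0.06 (-0.20 to 0.07) in the OLE library.

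Stx1a, a syntaxin, was also lower in GABAergic-like nuclei, at -2.27 (-2.52 to -2.04) and -2.09 (-2.33 to -1.86). The complexins divided, with Cplx1 higher at 1.02 and 1.10 and Cplx2 lower at -0.38 and -0.38. Among calcium sensors Syt2 and Rph3a were higher in GABAergic-like nuclei, at 1.17 and 0.86 in the vehicle and 1.60 and 0.91 in the OLE library. Syt5 and Syt7 were lower, at -0.98 and -1.18 in the vehicle and -1.11 and -1.22 in the OLE library. Unc13b, at -1.25 and -1.38, and Sh3gl2, at -0.99 and -1.05, were lower as well, and so was Erc2, at -0.65 and -0.67. Some widely used genes lay closer to 0, with Vamp2 at 0.06 and 0.14, Nsf at -0.17 and -0.19, Syn1 at -0.18 and -0.17 and Synj1 at -0.05 and -0.07. Others did not, with Snap25 lower at -0.56 and -0.56, Dnm1 at -0.53 and -0.40 and Syt1 at -0.27 and -0.29. Syn2 was higher, at 0.22 and 0.23.

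Per kb of span and over both libraries, the highest levels in glutamatergic-like nuclei were 18.1 scaled UMIs per kb for Snap25, 15.4 for Slc17a7 and 10.4 for Syp, and the lowest 0.143 for Syt2. In GABAergic-like nuclei Slc32a1 led at 21.2 per kb, followed by Sv2a at 14.6 and Snap25 at 12.2. The transmitter transporter of each class thus stood among the first genes of that class on the scale per kb.

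The GABAergic-like nuclei were divided into a Pvalb kind of 116 vehicle and 118 OLE nuclei, an Sst kind of 77 and 89, a Lamp5 kind of 62 and 68, a Vip kind of 48 and 60 and an unnamed sub-cluster of 21 and 16. These kinds are classes of cortical interneurons: Pvalb cells spike fast onto cell bodies, Sst cells inhibit dendrites, Vip cells inhibit other interneurons, and Lamp5 cells include the neurogliaform cells of the upper layers. Single paralogs marked single kinds. Syt2 was 89.4 scaled UMIs in the vehicle and 125 in the OLE library of the Pvalb kind, above the other GABAergic-like nuclei by 4.56 (3.83 to 5.39) and 4.14 (3.59 to 4.75) on the log2 scale. In the Sst kind it was 5.85 and 7.88, and the Vip and Lamp5 kinds had at most 4 UMIs each per library.

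Sv2c marked the Lamp5 kind. It was 274 and 231 in the Lamp5 kind, above the other nuclei by 4.98 (4.54 to 5.44) and 5.21 (4.68 to 5.78), and 22.2 and 10.9 in the Sst kind. Per kb of span and over both libraries, Sv2a stood above Sv2c in the Lamp5 kind, at 13.4 scaled UMIs against 1.42. Unc13c marked the Sst kind, at 207 and 280.1, above the others by 5.98 (5.28 to 6.77) and 5.18 (4.70 to 5.71). In the other 3 kinds it was between 1.36 and 15.0. Without doublet removal the Syt2 ratio of the Pvalb kind was 3.43 and 3.15 and the Unc13c ratio of the Sst kind 3.54 and 4.06, smaller and in the same direction.

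The complexins had opposite ends. Cplx1 was 84.2 and 98.8 in the Pvalb kind and 20.4 and 18.1 in the Vip kind. Cplx2 was 12.0 and 8.87 in the Pvalb kind and 102 and 131 in the Vip kind. The Sst and Lamp5 kinds lay between these ends for both genes in both libraries. Vamp1 was highest in the Pvalb kind, at 19.8 and 26.2, above the others by 1.30 (0.65 to 1.96) and 1.53 (0.92 to 2.16). Rph3a and Rims1 were highest in the Lamp5 kind, Rph3a at 240.0 and 256 against 52.0 and 67.6 in the Pvalb kind, and Rims1 at 3221 and 2722 against 1248 and 1118 in the Vip kind.

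**Figure D4:**
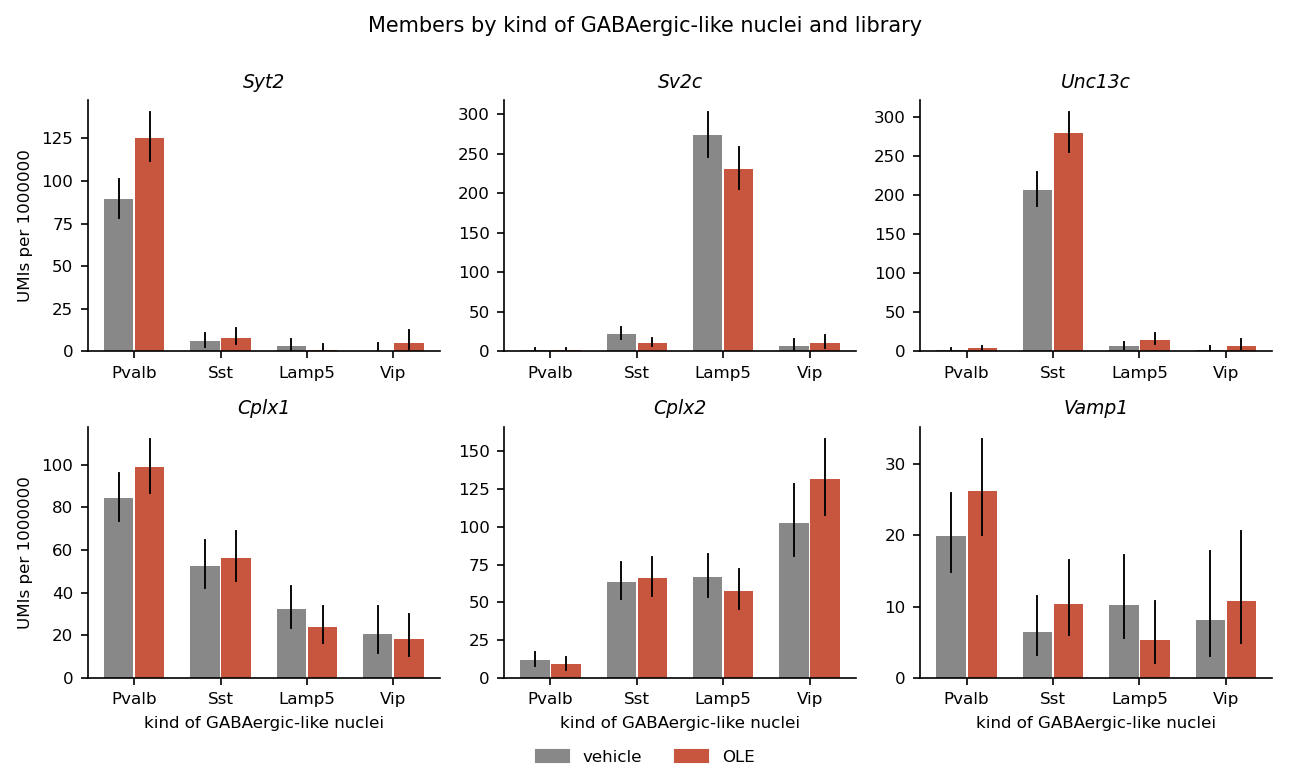
Scaled UMIs (vertical axis, UMIs per 1000000) of 6 genes in the 4 named kinds of GABAergic-like nuclei (horizontal axis), grey for the vehicle and red for the OLE library, with exact 95% Poisson intervals for counting error. Syt2 stands in the Pvalb kind, Sv2c in the Lamp5 kind and Unc13c in the Sst kind, and Cplx1 is highest where Cplx2 is lowest, in the Pvalb kind.

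Across the 13 glutamatergic-like clusters, named here by a pair of leading genes, several of the same paralogs varied widely. Unc13c, over both libraries, was 395 scaled UMIs in the Cpa6/Reln cluster, 310.0 in the Nell1/Htr2c and 309 in the Cntnap5b/Cdc14a cluster, but 8.23 in the Thsd7b/Hs3st4 cluster, a factor of 47.9. Sv2c was 118 in the Nell1/Htr2c and 107 in the Gpc6/Grik4 cluster, and 2.83 in the Foxp2/Hs3st4 cluster. Slc17a6 was highest in the same clusters, 108 and 80.4, with 63.5 in the Cdh7/Sntg2 and 3.89 in the Foxp2/Hs3st4 cluster. Its relative Slc17a7 was highest in the Foxp2/Hs3st4 cluster, at 247, and lowest in the Gpc6/Grik4 cluster, at 129, a factor of 1.91. Sv2b had the same ends as Slc17a7, 587 and 127.

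Syt2 was 66.8 in the Gpc6/Grik4 cluster and 2.83 in the Foxp2/Hs3st4 cluster, and its highest glutamatergic-like level was thus below that of the Pvalb kind. Cplx2 was 108 in the Nell1/Htr2c cluster and 9.20 in the Ntng1/Angpt1, 12.2 in the Fam19a1/L3mbtl4 and 17.1 in the Rorb/Kcnh5 cluster. Syn3 was 567 in the Nell1/Htr2c and 80.3 in the Ntng1/Angpt1 cluster. The genes that varied least were Vamp2, by a factor of 1.29, Syp of 1.31, Dnm1 of 1.31, Syt11 of 1.41 and Rab3a of 1.43 between the lowest and the highest cluster. Other genes of the fusion step varied more, Snap25 by a factor of 1.65, Syt1 of 1.73, Nsf of 2.19 and Stx1a of 3.68. The order of the 13 clusters was alike in both libraries for Slc17a6, Syn3, Cplx2 and Unc13c, with Spearman correlations of 0.99, 0.98, 0.95 and 0.85. For the variable genes Syt2 and Sv2c the correlation was 0.86 and 0.74. Among the even genes the correlation was 0.84 for Syt11 and 0.75 for Syp, but 0.39 for Dnm1, 0.24 for Vamp2 and -0.07 for Rab3a. Nuclei of 2 clusters were unevenly divided, the Ndst4/Shisa6 cluster with 120 vehicle and 227 OLE nuclei and the Cpa6/Reln cluster with 85 and 40. Weighting the clusters equally left the count of higher genes in glutamatergic-like nuclei at 9.

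**Figure D5:**
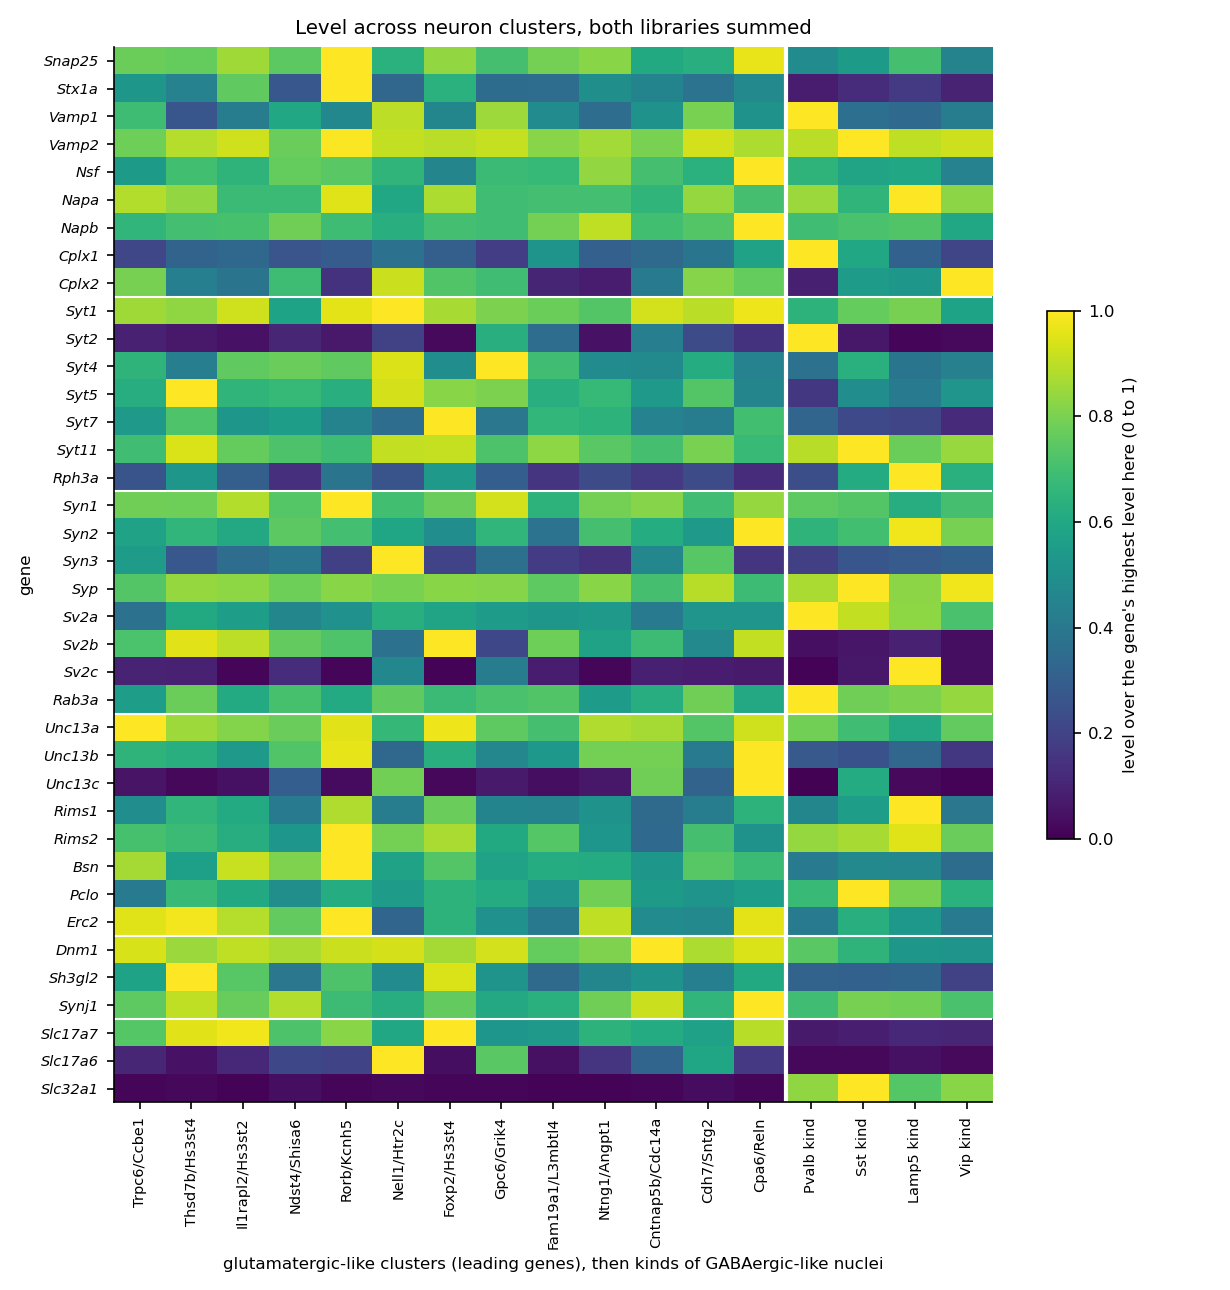
Level of each of the 38 genes (rows, by role) in the 13 glutamatergic-like clusters and the 4 named kinds of GABAergic-like nuclei (columns), both libraries summed, as a fraction of the highest level of that gene among the columns (colour, 0 to 1). Vamp2, Syp and Dnm1 are even across the glutamatergic-like clusters, while Unc13c, Sv2c, Slc17a6, Syt2 and Cplx2 stand highest in a few columns.

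Over both libraries 30 of the 38 genes had their highest level in neurons among the named classes compared, and the other 8 in another class. The mural cluster of 11 vehicle and 16 OLE nuclei was not among these classes. The same count was not made over all genes, so it is not read as a trait of the 38. Unc13c was 621 scaled UMIs in the vehicle and 569.7 in the OLE library of OPC-like nuclei, the precursors of oligodendrocytes, against 74.4 and 80.8 in glutamatergic-like nuclei. Syt11 was 534 and 615 in oligodendrocyte-like nuclei, against 187 and 231. Both genes were thus several times higher in a glial class in each library. Vamp1, Vamp2 and Unc13b were highest in vascular leptomeningeal-like nuclei, where Vamp2 was 76.6 and 81.1 on 51 and 57 UMIs. Napa, Synj1 and Rab3a were highest in microglia-like nuclei, where Rab3a was 42.0 and 55.7 on 37 and 40 UMIs. Rab3a, Vamp1, Vamp2 and Napa were also among the genes that stood far above neurons in the low-UMI barcodes, and the part of RNA shared between droplets in these levels was not tested. Syt1 was 968 and 815 in oligodendrocyte-like and 549 and 432 in astrocyte-like nuclei, against 5095 and 4808 in glutamatergic-like nuclei.

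Other presynaptic genes were read from a list of 59, of which 58 are in the tables. In glutamatergic-like nuclei 56 passed the minimum, 6 were higher and 1 lower, 10.7% and 1.79%, with a median of 0.07 that equals the median of all genes. Syngr3 and Syngr1, synaptogyrins of the vesicle membrane, were higher at 0.41 (0.31 to 0.52) and 0.32 (0.25 to 0.40), and Doc2b, a calcium sensor of spontaneous release, at 0.52 (0.31 to 0.74). In GABAergic-like nuclei 50 passed, 7 were higher and 2 lower, 14% and 4%, with a median of 0.08. Syngr1 was again higher there, from 65.3 to 92.5 at 0.50, and Syngr3 at 0.46, while Cadps2, a priming factor of dense-core vesicles, was lower at -0.28 (-0.38 to -0.17). In both classes the shares of this list that were higher lay under the background of 20.7% and 25.1%. In low-UMI barcodes 54 passed, 3 were higher and 2 lower, with a median of -0.01.

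Synaptic genes of other kinds had medians below 0. A list of 20 synaptic adhesion genes, which hold the presynaptic and postsynaptic membranes together, had a median log2 ratio of -0.07 in glutamatergic-like nuclei and -0.05 in the GABAergic-like class, with 1 and 2 higher and 0 lower. The median span of that list was 983 kb. A list of 27 subunits of glutamate and GABA receptors had medians of -0.01 and -0.03, with 1 higher and 0 lower in glutamatergic-like nuclei and 3 higher and 2 lower in GABAergic-like nuclei.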

How the data were processed

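Nuclei from frozen entorhinal cortex, pooled from 5 mice per library, were sequenced with 10x 3′ v3 chemistry. The authors aligned reads with Cell Ranger (3.0.1 in the processing notes, 3.0.2 in the matrix headers) to an mm10 pre-mRNA reference and deposited UMI counts per gene and barcode, as whole numbers without normalization. Intronic reads were therefore counted. The submitters' notes also name Seurat 4.0.4 for steps after the counts, and no deposited values from those steps were used. The barcodes in the files match the number of nuclei the study counts.

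From the counts, Scrublet, as run by scanpy 1.11.5, gave each barcode a doublet score within its own library. Its automatic threshold called 0.104% and 0.130% of barcodes, under 0.5%, so the top 5% of scores were removed (331 and 289), leaving 6414 and 5884 barcodes. SCTransform (Seurat 5.3.0, sctransform 0.4.2, R 4.3.3) chose 3000 variable genes, and the members among them were dropped. Louvain clustering used 30 components, 20 neighbours and resolution 0.4, and GABAergic-like nuclei were clustered again on 15 components. A name needed at least 3 raised markers, each at least 4 times the tenth percentile over clusters and in at least 10% of the nuclei. This naming rule and its settings were set after clusters of these data had been seen. UMIs were summed per class and library and divided by the class total, with exact Poisson intervals for levels and Clopper-Pearson intervals for ratios (scipy 1.17.1). Ratios were taken without a pseudocount where both sides held over 3 UMIs. The scripts were tested on simulated counts.

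The 38 members, the other gene lists and the rules were chosen with earlier results of these data known. Named with full values were the family members across classes and, per neuron class, the 3 highest and 3 lowest ratios among members with at least 200 UMIs. Further genes of the list past the limit were named after their values were seen. Alternatives changed the scaling, the minimum of UMIs, doublet removal, the variable genes, depth, weighting, mitochondrial filter, low-UMI barcodes and the limit. Syt1, Syn2, Sv2c and Sh3gl2 overlap another gene on the same strand, and reads in the overlap may be split between them. Promoter sequences were read from RefSeq tables of GRCm38.p6, and gene spans were matched by identifier.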

Additional observations from a re-analysis of the deposited data

How the results depend on the processing

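No paired analysis was possible because each condition is 1 library. Of 406 values recomputed for named genes, 320 stayed within the counting interval or tolerance and 86 did not, with 0 called values that changed sign. The thinned ratio of Sv2b in GABAergic-like nuclei, above 0 on 7 and 16 UMIs, was under the minimum and not among them. The 320 include 30 values with no minimum and 28 with at least 500 UMIs, which could not move because a minimum only drops genes. Scaling by the median ratio moved 23 of 46 values for named genes, and thinning to 1000 UMIs moved 21 of 28. Of 142 values for summaries, 115 stayed within theirs and 27 did not. Scaling by the median ratio over genes gave a median of 0.0020 over the 38 genes in glutamatergic-like nuclei, summed log2 ratios of -0.088 in glutamatergic-like, -0.11 in GABAergic-like nuclei and -0.040 in low-UMI barcodes, and 5 lower genes in GABAergic-like nuclei. With nuclei thinned to 1000 UMIs, 17 genes could be counted in GABAergic-like nuclei, of which 0 were higher and 3 lower with a median of -0.12, and the summed ratio there was -0.11. In glutamatergic-like nuclei thinning gave a summed ratio of -0.030 and a correlation with span of -0.56. With at least 500 UMIs 7 genes were higher and 0 lower in GABAergic-like nuclei, and with no minimum 2 were lower. A fold limit of 0.5 left 3 higher genes in glutamatergic-like nuclei, and 6 higher and 0 lower in GABAergic-like nuclei. Without doublet removal 0 were lower there, and 2 with the mean over nuclei or with clusters weighted equally. The summed ratio in glutamatergic-like nuclei was -0.012 with the mean over nuclei, -0.0069 with clusters weighted equally and -0.031 with low-UMI barcodes counted in, which also gave a correlation with span of -0.82. Equal weights gave a summed ratio of -0.049 in GABAergic-like nuclei. The cause of these moves was not tested, except that thinning and the minimum leave fewer genes to count. Shares over all genes were not counted under these alternatives. Chosen after seeing the data were each low-UMI cluster alone, all neuron nuclei as the reference and the glutamatergic-like counts without Slc32a1, which gave 8 higher and 0 lower. Cluster 0 alone gave a summed ratio of -0.0020 and, in the OLE library, a correlation of low-UMI level with span of -0.73. Counting low-UMI barcodes with glutamatergic-like nuclei changes no GABAergic-like value, and a minimum of UMIs does not apply to summed levels, so neither was run there. With 1 library per condition a difference between pools of mice, or between library preparations, cannot be told apart from a difference between treatments.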

Other observations

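Sub-cluster 4 of the GABAergic-like nuclei, led by Pard3b, Ptprk and Corin and left unnamed, held 21 vehicle and 16 OLE nuclei. It had a Cplx1 level of 83.4 scaled UMIs in the vehicle and 122 in the OLE library, near that of the Pvalb kind, and 120.2 and 156 of Syt7. Cplx2 was 9.82 there on 4 UMIs in the vehicle and was not detected in the OLE library. Syt2 rested on 2 UMIs in the vehicle and 11 in the OLE library, which is too few to compare.

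The unnamed neuron cluster led by Vwc2l, Cntn6 and Kcnip1 held 65 vehicle and 77 OLE nuclei. Unc13b was 434 and 429 scaled UMIs in it, above the 262 of the highest glutamatergic-like cluster over both libraries. Rab3a was 31.1 and 30.9, and Syp was 144 and 212. The cluster held 1287685 UMIs of all genes in the vehicle and 1327594 in the OLE library, so few Rab3a UMIs lie behind these levels. A difference between this cluster and the 13 glutamatergic-like clusters in the Rab3a ratio was not tested.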
